A study of Mus musculus with 6 samples.

Results

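The p53 targets and apoptosis regulators described here are 33 genes: Trp53 and its inhibitors Mdm2 and Mdm4, known p53 targets of cell cycle arrest, repair and metabolism, members of the BCL2 family, death receptors, and the caspases and adaptor of the death pathways. They were found by gene symbol among 54232 genes of a count table from mouse testis, 1 row each, and 33 of 33 passed the filter on low counts that left 20153 genes. The table compares whole testes at postnatal day 4 from B6D2F1 mice in 2 groups, Dis3l2 WT and Dis3l2 cKO, with 3 libraries each. Dis3l2 encodes an exonuclease that degrades RNAs carrying a tail of uridines, and cKO stands for its conditional knockout. The labels used here name neither the Cre line, nor the cells in which it acts, nor the deleted exons, nor any allele that the controls carry, and they do not say that the 3 samples of a group were separate animals, so p-values reflect only the spread among these libraries, which may be technical. The comparison asks whether RNAs of the p53 and cell death pathways differed between testes with and without the deletion. Cell death itself was not measured.

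p53 is a transcription factor that MDM2 keeps low in unstressed cells. On DNA damage and other stress it is stabilised and turns on genes that halt the cell cycle, such as Cdkn1a, and genes that start death from within the cell, such as Bbc3 and Pmaip1. The proteins of these last genes belong to the BH3-only group, which releases BAX and BAK1 from anti-death relatives such as BCL2 and MCL1, so that the mitochondrial membrane opens and cytochrome c, APAF1 and caspase 9 form the apoptosome. Death receptors such as FAS act from outside the cell through caspase 8. In the neonatal testis, gonocytes move to the edge of the seminiferous cord and give rise to spermatogonia, and germ cells of the young testis are known to die in part through a pathway that needs BAX.

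As background on sequence, the RefSeq promoters of the GRCm38.p6 assembly, from 250 bases before to 50 bases after each start site, were searched for the p53 decamer motif, a palindrome that reads alike on both strands. Promoters were held for 28 members, 39 promoters in all since a gene can have several start sites, and not for 5. In 9 of the 28 (32.1%) a promoter contained the decamer, against 2582 of 27025 genes (9.55%). A pair of decamers at most 13 bases apart, the letter pattern of a full response element, occurred in 1 member, Cdkn1a, and in 20 of all genes (0.074%). The stretches below are shown because they belong to the standard arrest target, the p53 inhibitor, the called repair gene and the pore-forming gene that the results compare, and the capitals mark the decamer.
Cdkn1a, chr17:29090896-29090947, plus strand: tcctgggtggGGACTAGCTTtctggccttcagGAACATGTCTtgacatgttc
Mdm2, chr10:117710925-117710954, minus strand: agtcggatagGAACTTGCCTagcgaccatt
Polk, chr13:96519399-96519428, minus strand: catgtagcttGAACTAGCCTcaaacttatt
Bax, chr7:45467080-45467109, minus strand: agcatatcccAGGCAAGCTTtgaacttgcg
In Cdkn1a the first decamer begins 73 bases before the start site at base 29090979, which is the first base of its gene model. The other members with a match in this window were Trp53, Ccng1, Sesn1, Gadd45a and Aen. The Polk match precedes a start site at base 96519187, which lies inside its gene model (96480690 to 96542579, minus strand). That of Sesn1 precedes base 41887439, also inside its gene model (41809935 to 41908424, plus strand). A match describes the letters only, and binding was not measured.

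The libraries held 26126694 to 43265614 counts each. Dis3l2 RNA itself did not separate the groups (32.8, 31.0 and 32.1 CPM, counts scaled to library size, in WT and 30.6, 31.0 and 33.6 CPM in cKO), and since the deleted exons are not named, a count over the whole gene does not check the labels. Germ cell transcripts were lower in cKO: of 30 germ cell markers, 24 fell and 0 rose, and their summed level was 1961 to 2052 CPM in WT and 1137 to 1232 in cKO. Of 15 macrophage markers 4 rose (sum 110 to 120 CPM in WT and 144 to 145 in cKO), of 11 measured Leydig cell markers 5 rose (1080 to 1111 CPM and 1187 to 1371 CPM), and of 18 Sertoli cell markers 5 rose and 2 fell (6322 to 6434 CPM and 6722 to 7508 CPM). Without cKO replicate 1, described next, 8 of the Leydig cell markers and 11 of the Sertoli cell markers were higher, and 24 of the germ cell markers were lower. The summed markers of each of these cell types were above 0 in both groups, a bar too low to check the labelled tissue. In whole testes, fewer cells of a type and less RNA per cell cannot be told apart. The library cKO replicate 1 stood apart from the other cKO libraries. It had the fewest counts, and its 1966 olfactory and vomeronasal receptor genes summed to 273 CPM. That sum was 52.0 and 47.0 CPM in the other cKO libraries and 106 to 126 CPM in WT. Relative to the WT mean, its GC-rich genes read lower than its GC-poor genes by 0.10 on the log2 scale. Those of cKO replicates 2 and 3 read higher by 0.10 and 0.25, and the WT libraries ran from -0.03 to 0.04. By GC content cKO replicate 3 was thus the farthest from WT, and fits without cKO replicate 1 keep it. Counts of calls are given below also without cKO replicate 1 where that changes them by over 1.5 times.

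Most of the pathway did not pass the test, and the 3 genes that did were Gdf15 and Polk, which rose, and Trp53inp1, which fell. A gene is called here when its Benjamini-Hochberg adjusted p over the 20153 genes, from the quasi-likelihood test of edgeR, was under 0.05. That is 3 of 33 members (9.09%), beside 8.34% of all genes tested. Among all genes 3.4% were called higher and 4.94% lower in cKO. The median log2 fold change of the members, always cKO over WT, was 0.00, with 17 members fitted above 0 and 16 below, and that of all genes was 0.01. In 11 members (33.3%) the 3 cKO libraries lay wholly on 1 side of the 3 WT libraries, 5 of them higher and 6 lower, beside 28.2% of all genes. Both shares lie near the background. An unadjusted p under 0.05 from edgeR was reached by 9 of 33 members, and by 4699 of the 20153 genes tested. Of the 30 members not called, 22 had a 95% confidence interval of the log2 fold change within 0.5 of 0 in both directions, and 8 (Plk3, Perp, Aen, Bbc3, Pmaip1, Bcl2l11, Bid and Fas) had an interval that reached further. Without cKO replicate 1, 5 members were called higher (Gdf15, Polk, Trp53, Bak1 and Casp8) and 2 lower (Trp53inp1 and Aen), and 3375 genes were called in place of 1681.

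**Figure D1:**
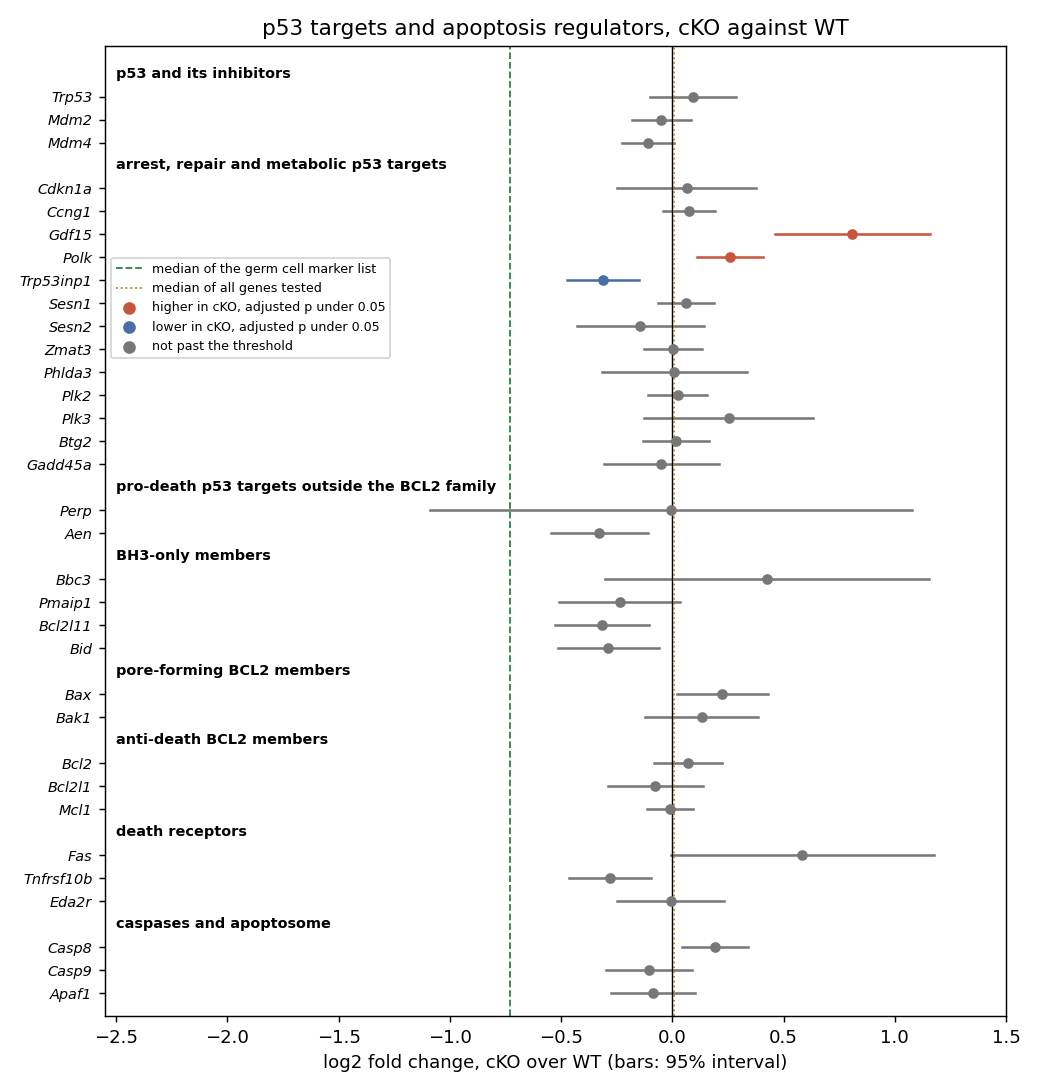
Log2 fold change of each member, cKO over WT, by role, with 95% confidence intervals from edgeR. Red and blue points mark the 3 genes called, the dotted line the median of all genes tested (0.01) and the dashed line the median of the germ cell marker list (-0.73). Most members lie near 0, and the widest interval is that of Perp.

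Trp53 RNA was abundant and did not pass the test. Trp53 read 123, 122 and 130 CPM in WT and 111, 138 and 150 in cKO. The cKO libraries lay on both sides of the WT libraries, with cKO replicate 1 the lowest of the 6 (log2 fold change 0.09, SE 0.09, 95% interval -0.10 to 0.29, edgeR adjusted p = 0.595). Without that library the log2 fold change was 0.20 and Trp53 was called (edgeR adjusted p = 0.0106). With a correction for GC content in each library, chosen after seeing the data, the log2 fold change was 0.08 (edgeR adjusted p = 0.527). Without cKO replicate 3 it was -0.0054 (edgeR adjusted p = 0.983).

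Mdm2, which encodes the ubiquitin ligase that degrades p53 and is itself a p53 target, read 91.0, 92.1 and 92.5 CPM in WT and 88.1, 95.1 and 82.8 in cKO. The groups overlapped (log2 fold change -0.05, 95% interval -0.18 to 0.08, edgeR adjusted p = 0.683). Mdm4, which encodes the relative of MDM2 that blocks p53 activity, read 79.9, 77.6 and 81.8 CPM in WT and 74.2, 73.1 and 74.4 in cKO. The groups did not overlap for Mdm4, but the difference was small (log2 fold change -0.11) and not past the threshold (edgeR adjusted p = 0.247).

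Of the 13 targets of arrest, repair and metabolism, 2 rose, 1 fell and 10 were not called, with a median log2 fold change of 0.02. Cdkn1a, which encodes the cyclin-dependent kinase inhibitor p21 and is the standard readout of p53 activity, read 6.23, 5.69 and 4.63 CPM in WT and 5.68, 5.70 and 5.96 in cKO. The cKO values lay inside the WT range (log2 fold change 0.06 with an SE of 0.14, edgeR adjusted p = 0.845). The 95% interval of -0.25 to 0.38 reaches up to a 1.30-fold rise in whole-testis RNA and reflects only the spread among these libraries. Levels in single cell types were not measured.

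Gdf15, which encodes a secreted stress cytokine of the TGF-beta family, read 3.85, 4.6 and 4.35 CPM in WT (156 to 200 counts) and 6.25, 9.09 and 7.05 CPM in cKO (164 to 311 counts). Every cKO library lay above every WT library. The WT mean was 4.27 ± 0.38 CPM and the cKO mean 7.46 ± 1.47 CPM (SD, n = 3 each), a rise of 1.75-fold (log2 fold change 0.81, SE 0.16, 95% interval 0.46 to 1.16, edgeR adjusted p = 0.00895). It was the member with the largest log2 fold change in size. The call was lost without WT replicate 1 (log2 fold change 0.74, edgeR adjusted p = 0.0571) and without cKO replicate 2 (0.64, edgeR adjusted p = 0.0540), and it was kept without cKO replicate 1 (0.91, edgeR adjusted p = 0.000264).

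Gdf15 lies at chr8:70629393-70632456 in GENCODE gene models on GRCm38, inside a stretch of chromosome 8 from 30 to 95 Mb where calls were frequent: 104 of 508 tested genes were called there (20.5%, 32 higher and 72 lower), against 1577 of 19645 elsewhere (8.03%). The bounds of that stretch follow no stated rule, and no test compared these shares. Whether the change in Gdf15 belongs to that stretch was not tested. Gdf15 is also known as a target of ATF4, the transcription factor of the integrated stress response. Of 15 genes known for that response 1 rose, the lipoprotein receptor gene Vldlr (log2 fold change 0.30, edgeR adjusted p = 0.0441, lost in 6 of 16 alternatives), 0 fell, and the list's median was 0.07. The summed macrophage and Leydig cell markers were higher in cKO beside Gdf15, with 4 of 15 and 5 of 11 of them called, and their part in its rise was not tested.

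Polk, which encodes a DNA polymerase that copies past damaged bases, read 38.9, 38.7 and 36.2 CPM in WT and 47.1, 46.3 and 42.8 in cKO. The groups did not overlap, and the rise was 1.2-fold (log2 fold change 0.26, SE 0.07, 95% interval 0.11 to 0.41, edgeR adjusted p = 0.0373). The adjusted p stood close to the threshold. The call was lost with scaling by library size alone (edgeR adjusted p = 0.0521), without the filter on low counts (0.0646), and without any 1 of WT replicates 1 to 3 or cKO replicate 2 (edgeR adjusted p = 0.100, 0.126, 0.162 and 0.153), with log2 fold changes of 0.23 to 0.27 in these 6 fits.

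Trp53inp1, which encodes a nuclear protein that joins p53 in stress responses and takes part in autophagy, read 50.4, 44.8 and 43.7 CPM in WT and 39.1, 37.3 and 35.7 in cKO. Every cKO library lay below every WT library. The level in cKO was 0.806 of that in WT (log2 fold change -0.31, SE 0.07, 95% interval -0.47 to -0.15, edgeR adjusted p = 0.0232). The call was lost without WT replicate 1 (log2 fold change -0.25, edgeR adjusted p = 0.122), WT replicate 2 (-0.33, 0.0829), cKO replicate 2 (-0.31, 0.0934) or cKO replicate 3 (-0.28, 0.0600). Germ cell markers fell in the same libraries, and their part in this fall was not tested.

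**Figure D2:**
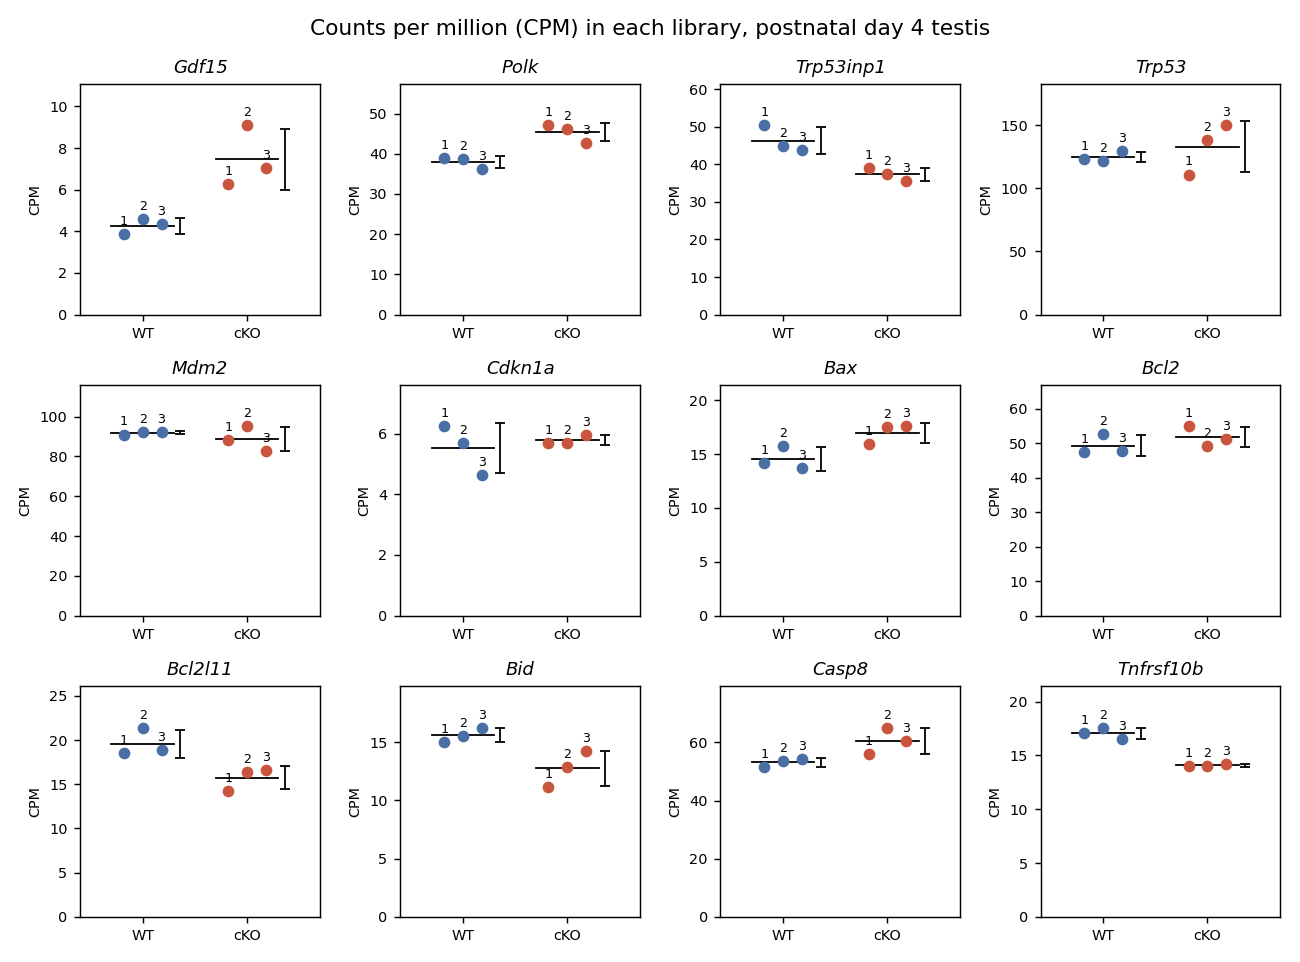
CPM of 12 members in each library, WT in blue and cKO in red, with replicate numbers, a line at the group mean and an error bar of 1 SD (n = 3 each). Gdf15 sits at 3.85 to 4.6 CPM in WT and 6.25 to 9.09 in cKO, whereas the Cdkn1a groups overlap.

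The other 10 targets of this role gave no call. Ccng1, which encodes a cyclin that recruits a phosphatase to MDM2, read 87.3, 89.9 and 92.8 CPM in WT and 92.0, 95 and 97.3 in cKO, and its groups overlapped (log2 fold change 0.07). Sesn1 (0.06), whose protein restrains mTORC1, Zmat3 (0.00), which encodes a zinc finger RNA-binding protein, Plk2 (0.02), a kinase gene, Btg2 (0.02), an antiproliferative gene, and Gadd45a (-0.05), a growth arrest gene, had log2 fold changes within 0.1 of 0. The related kinase gene Plk3 had 4.26 to 6.81 CPM in WT and 5.88 to 6.44 in cKO (log2 fold change 0.25, 95% interval -0.13 to 0.63). Sesn2 had 16.6 to 18 CPM in WT and 13, 14.3 and 19.4 in cKO (-0.14). Phlda3, which encodes an inhibitor of AKT, had 18.7 to 21.4 CPM in WT and 15.2, 19.5 and 25.7 in cKO (0.01). Sesn2 and Phlda3 thus spread more widely in cKO than in WT, and in both the lowest value was that of cKO replicate 1 and the highest that of cKO replicate 3.

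Both pro-death targets outside the BCL2 family were without a call. Aen, which encodes a nuclease that cuts DNA in dying cells, read 22.5, 23.3 and 26.9 CPM in WT and 18.4, 17.9 and 21.5 in cKO. The groups did not overlap (log2 fold change -0.33 with an SE of 0.10, edgeR adjusted p = 0.0654), and Aen was called lower in 7 of 16 alternatives, among them DESeq2 (adjusted p = 0.0268) and the fit without cKO replicate 1 (edgeR adjusted p = 0.0429). Perp, which encodes a membrane protein of desmosomes, was near the limit of detection with 10 to 26 counts per library, and its interval of -1.09 to 1.08 leaves a change of either sign possible.

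Of the 9 BCL2 family members 0 were called by edgeR, 3 had an unadjusted p under 0.05, limma-voom called 0 and DESeq2 called 1, Bcl2l11. Their median log2 fold change was -0.01. The BH3-only genes and the pore-forming genes had medians on opposite sides of 0 (-0.26 over 4 genes and 0.18 over 2), but no test compared these medians.

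Among the BH3-only genes, Bcl2l11, which encodes BIM, read 18.5, 21.4 and 18.9 CPM in WT and 14.2, 16.4 and 16.6 in cKO. The groups did not overlap (log2 fold change -0.31 with an SE of 0.10, edgeR adjusted p = 0.0689), and DESeq2 (adjusted p = 0.0393) and scaling by library size alone (edgeR adjusted p = 0.0458) called it lower. Bid, whose protein caspase 8 cleaves to pass the receptor signal to mitochondria, read 15.0, 15.5 and 16.3 CPM in WT and 11.2, 12.9 and 14.2 in cKO. Its groups did not overlap either (log2 fold change -0.29 with an SE of 0.10, edgeR adjusted p = 0.121). Pmaip1, which encodes NOXA, read 13.5, 17.0 and 15.5 CPM in WT and 11.1, 15.0 and 12.9 in cKO, with overlap (log2 fold change -0.24, edgeR adjusted p = 0.290). Bbc3, which encodes PUMA, the main p53-induced killer, had 27 to 59 counts per library (0.62 to 1.21 CPM in WT and 1.07 to 1.69 in cKO), and its interval of -0.30 to 1.16 was too wide to tell a rise from none (log2 fold change 0.43, edgeR adjusted p = 0.502). So 3 of the 4 BH3-only genes were fitted below 0 and 1 above.

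Of the pore-forming genes, Bax read 14.2, 15.8 and 13.7 CPM in WT and 15.9, 17.5 and 17.6 in cKO. The lowest cKO library lay just above the highest WT library (log2 fold change 0.22, SE 0.09, 95% interval 0.02 to 0.43, edgeR adjusted p = 0.175). Bax shares 192 of its 1576 exon bases (12.2%) with the gene model Gm45808 on the same strand, where reads over both were not counted. Bak1 read 28.6, 31.0 and 32.6 CPM in WT and 26.4, 36.2 and 38.0 in cKO, with overlap (log2 fold change 0.13, edgeR adjusted p = 0.559). As for Trp53, cKO replicate 1 was the lowest library, and without it Bak1 was called higher (log2 fold change 0.27, edgeR adjusted p = 0.0166). With the GC correction the log2 fold change was 0.10 (edgeR adjusted p = 0.540).

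The anti-death genes had log2 fold changes within 0.08 of 0. Mcl1, needed for the survival of many cell types, read 163, 166 and 165 CPM in WT and 167, 161 and 163 in cKO, with a 95% interval of -0.12 to 0.09 around a log2 fold change of -0.01 (edgeR adjusted p = 0.924). Bcl2 read 47.4, 52.7 and 47.8 CPM in WT and 54.8, 49.3 and 51.3 in cKO (0.07, edgeR adjusted p = 0.605). Bcl2l1, which encodes BCL-XL, read 28.5, 24.9 and 28.2 CPM in WT and 22.1, 27.2 and 27.9 in cKO (-0.08, edgeR adjusted p = 0.710). The groups of all 3 genes overlapped.

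Of the 3 death receptors 0 were called by edgeR, DESeq2 or limma-voom, and 1 had an unadjusted p under 0.05. Tnfrsf10b, the mouse receptor for the death ligand TRAIL, read 17.1, 17.6 and 16.6 CPM in WT and 14, 14 and 14.2 in cKO. The replicates were tight and the groups did not overlap (log2 fold change -0.28 with an SE of 0.08, edgeR adjusted p = 0.0653), and scaling by library size alone called it lower (edgeR adjusted p = 0.0469). Fas was rare, with 36 to 61 counts per library, and read 0.86, 1.29 and 1.03 CPM in WT and 1.56, 1.46 and 1.75 in cKO. The Fas groups did not overlap (log2 fold change 0.58, 95% interval -0.01 to 1.17, edgeR adjusted p = 0.219). Eda2r, the receptor for ectodysplasin A2, read 10.2 to 12.6 CPM in WT and 10.7 to 11.5 in cKO (-0.01).

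Casp8, which encodes the caspase that death receptors activate, read 51.4, 53.5 and 54.3 CPM in WT and 56.1, 65.1 and 60.5 in cKO. The groups did not overlap (log2 fold change 0.19, SE 0.07, 95% interval 0.04 to 0.34, edgeR adjusted p = 0.109). Leaving out cKO replicate 1 made it a call (0.24, edgeR adjusted p = 0.00962), as did the GC correction (0.21, edgeR adjusted p = 0.0494). Casp9, the caspase gene of the apoptosome, read 23.5, 21 and 21.7 CPM in WT and 19.2, 20.0 and 22.2 in cKO (log2 fold change -0.11, edgeR adjusted p = 0.533). Apaf1, the scaffold of that complex, read 29.7, 29.1 and 28.1 CPM in WT and 25.1, 30.6 and 26.1 in cKO (-0.09, edgeR adjusted p = 0.612). Casp9 and Apaf1 overlapped between groups, and 0 of these 3 genes were called by edgeR, DESeq2 or limma-voom, with 1 at an unadjusted p under 0.05.

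**Figure D3:**
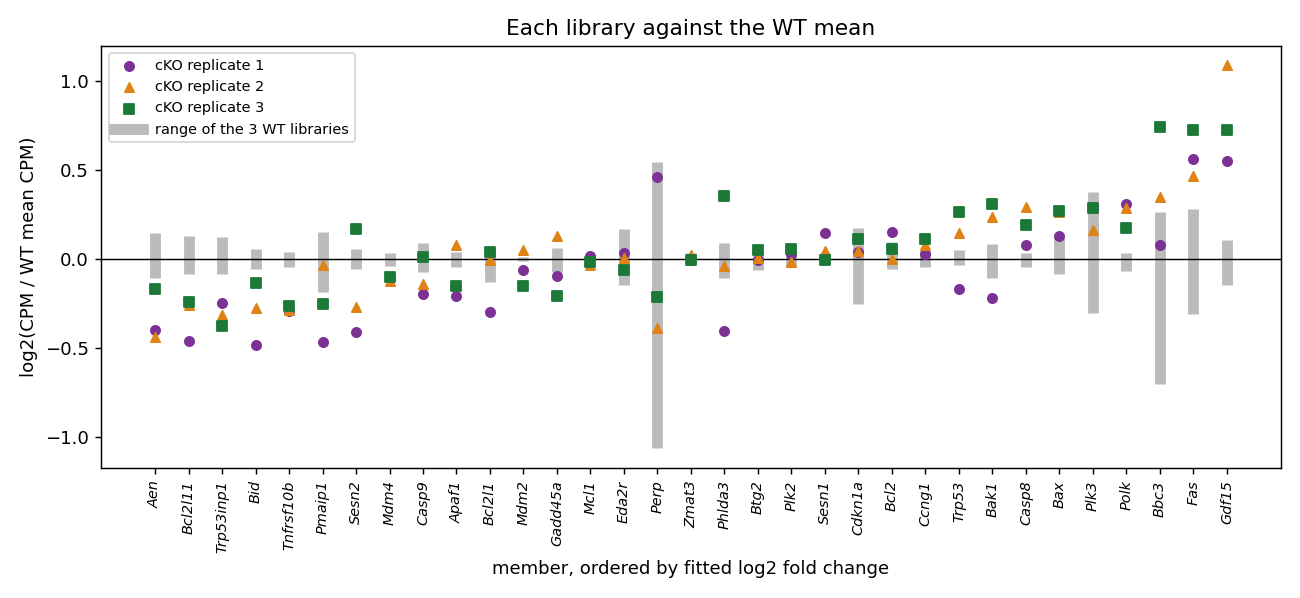
Log2 ratio of CPM in each cKO library to the WT mean for each member, ordered by fitted log2 fold change, with the range of the 3 WT libraries as grey bars. Trp53, Bak1, Phlda3 and Sesn2 are lowest in cKO replicate 1, and Gdf15 is above its WT mean in all 3.

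Levels between genes were compared as CPM per kb of exon. In WT, Mcl1 was the most abundant member at 48.2 CPM per kb, followed by Trp53 (30.9), Ccng1 (25.6), Sesn1 (22.8), Casp8 (18.4) and Mdm2 (18.1). Within the library ranges Ccng1 (24.9 to 26.4) and Sesn1 (22.3 to 23.3) were separate, and Casp8 (17.8 to 18.8) and Mdm2 (17.9 to 18.2) overlapped. Bax stood at 9.23 CPM per kb and Bcl2 at 5.38. Known p53 targets thus stood near the top of the order, and others stood at its low end: Cdkn1a at 2.48, Gdf15 at 2.31, Fas at 0.59, Bbc3 at 0.48 and Perp at 0.25 CPM per kb. In cKO, Gdf15 stood at 4.03 CPM per kb. The ratio of Bax to Bcl2, each per kb, was 1.74, 1.74 and 1.67 in WT and 1.69, 2.06 and 1.99 in cKO, so cKO replicate 1 lay within the WT range and the other cKO libraries above it. This ratio is given as a description with no test. Bax transcripts hold 59.0% GC and those of Bcl2 45.7%, and the cKO libraries differed by GC content as given above. With the GC correction the log2 fold change was 0.19 for Bax and 0.10 for Bcl2, against 0.22 and 0.07 in the main fit. The part of GC content in the ratio was not tested.

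Wider lists of the same pathways gave few calls. Of 34 other p53 targets 1 rose and 1 fell, with a median log2 fold change of 0.02. Without cKO replicate 1 the counts were 4 and 4, with Fdxr, Steap3 and Ddit4 added to those higher and Ppm1d, Thbs1 and Xpc to those lower. The one that rose was Sulf2, which encodes a heparan sulfatase (mean 884 CPM with an SD of 32.2 over the 3 WT libraries, and 1032 CPM with an SD of 28.5 over the 3 cKO libraries, log2 fold change 0.22, edgeR adjusted p = 0.0122). The one that fell was Ckap2, a spindle gene that lies on chromosome 8 (-0.24, edgeR adjusted p = 0.0167). The calls of Sulf2 and Ckap2 were lost in 2 and 4 of 16 alternatives. With all libraries kept, DESeq2 called 3 genes of this list higher and 2 lower, adding Fdxr, Steap3 and Ppm1d. On the same libraries limma-voom called 3 higher and 1 lower, adding Fdxr and Steap3. Of 19 measured genes among 20 p53 kinases, cofactors and relatives, 3 fell and 0 rose, and every cKO library lay below every WT library in 8 and above in 2. Of all 20153 genes tested, 2939 lay below and 2735 above in this way (28.2% in either direction), and 8.34% were called. The list was not tested against all genes. Leaving out cKO replicate 1 made the calls in the list 4 lower and 3 higher. Cdkn2a, whose product ARF restrains MDM2 and whose other product p16 inhibits cyclin-dependent kinases, read 12.4, 11 and 11.5 CPM in WT and 6.02, 7.28 and 8.97 in cKO (log2 fold change -0.64, edgeR adjusted p = 0.0142). Counts over the whole gene do not separate the ARF and p16 transcripts. Chek1, the checkpoint kinase gene (-0.27, edgeR adjusted p = 0.0464), and Usp7, whose protein removes ubiquitin from MDM2 and p53 (-0.18, edgeR adjusted p = 0.0274), also fell. The calls of Chek1, Usp7 and Cdkn2a were lost in 6, 4 and 4 of 16 alternatives, with adjusted p up to 0.242, 0.155 and 0.0810 in edgeR. Trp63, the p53 relative known for guarding germ cells, was singled out after its values were seen: it read 4.09, 4.14 and 3.01 CPM in WT and 6.82, 4.53 and 4.01 in cKO, with overlap (log2 fold change 0.43, edgeR adjusted p = 0.242).

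Of 11 measured genes among 16 other BCL2 family genes, 1 rose and 0 fell. It was Bad, a BH3-only gene whose protein binds BCL2 and BCL-XL, at 17.3, 17.7 and 17.8 CPM in WT and 21.1, 22.9 and 25.2 in cKO (log2 fold change 0.39, edgeR adjusted p = 0.0172, lost in 5 of 16 alternatives). Of 16 other caspases, receptors and adaptors 0 were called by edgeR. An unadjusted p under 0.05 was reached by 6, beside 4699 of 20153 among all genes tested. Among the 16, limma-voom called 0 and DESeq2 called 1, Casp6. Without cKO replicate 1, edgeR called 2 of them higher and 1 lower. Casp6, named after its values were seen, had a log2 fold change of 0.26 (edgeR adjusted p = 0.0553). Of 16 mitochondrial release factors and caspase inhibitors 2 fell and 0 rose. Cyct, the germ cell form of cytochrome c, read 14, 17.0 and 18.7 CPM in WT and 9.64, 7.63 and 9.06 in cKO (log2 fold change -0.92, edgeR adjusted p = 0.00109), beside germ cell markers with a median of -0.73. The second was Aifm1, which encodes a mitochondrial flavoprotein (-0.35, edgeR adjusted p = 0.0360, lost in 4 of 16 alternatives, whereas that of Cyct was lost in 0).

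Genes for the clearance of dying cells, which neighbouring Sertoli cells and macrophages carry out, moved in both directions: of 20, 2 rose, 1 fell and 17 did not pass (median log2 fold change 0.06). Leaving out cKO replicate 1 gave counts of 4 and 3, with the engulfment receptor genes Axl and Tyro3 higher and Mertk lower. With all libraries kept, DESeq2 also called Mertk lower. Anxa1, which encodes a protein that marks apoptotic cells and limits inflammation, read 64.2, 73.6 and 64.6 CPM in WT and 113, 108 and 88.2 in cKO (0.61, edgeR adjusted p = 0.00143). Stab1, a scavenger receptor gene of macrophages and endothelium, rose by 0.28 (edgeR adjusted p = 0.0391, with the call lost in 8 of 16 alternatives). The macrophage marker Mrc1 rose too (0.35, edgeR adjusted p = 0.0136, lost in 4 of 16 alternatives). Of the 15 macrophage markers only 4 were called, with 13 fitted above 0 and 2 below. Whether Stab1 moved with the number of macrophages was not tested. Elmo1, which encodes an adaptor for engulfment, fell (-0.37, edgeR adjusted p = 0.0101). The Elmo1 call was lost in 3 of 16 alternatives and that of Anxa1 in 0.

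**Figure D4:**
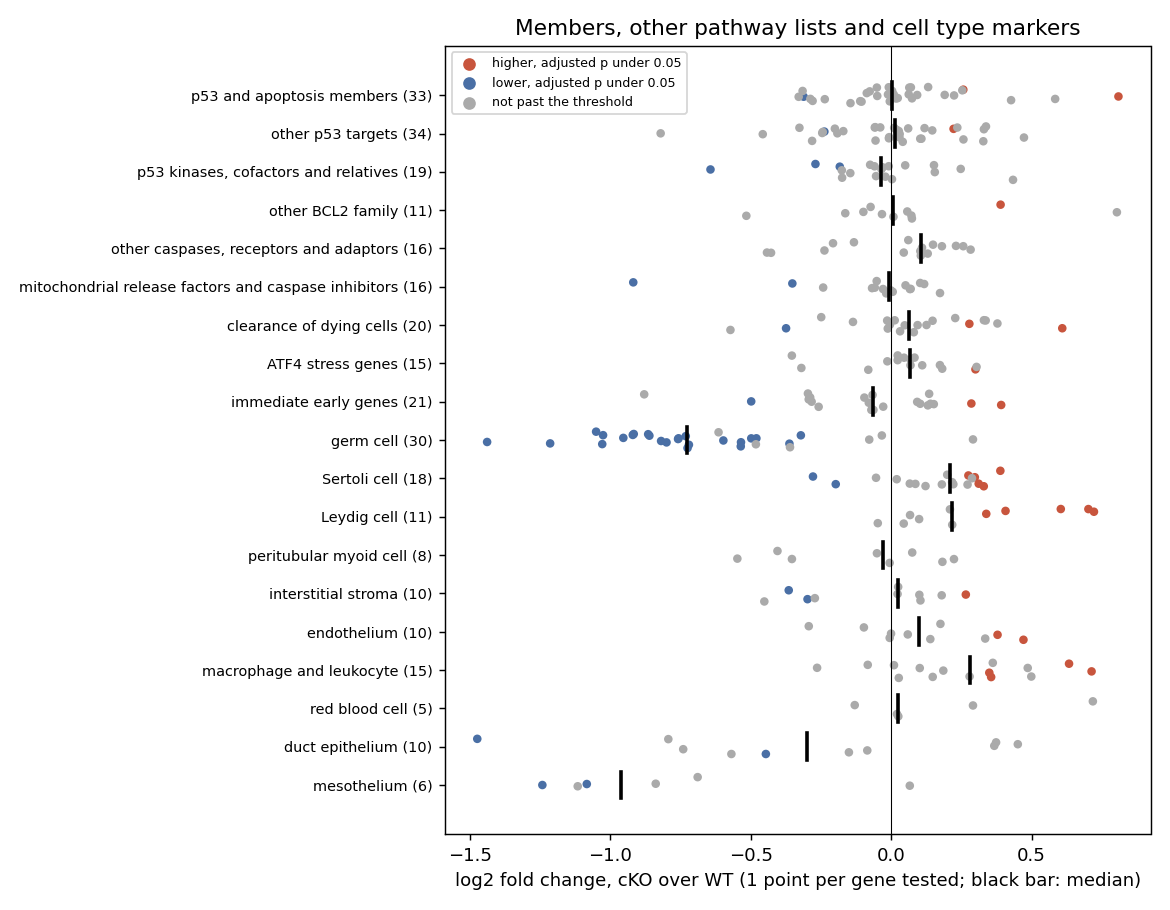
Median log2 fold change, cKO over WT, of the 33 members, the pathway lists and the cell type marker lists (black bars), with 1 point per gene tested, red or blue where called. The median of the members lies at 0.00, those of the other p53 and cell death lists between -0.03 and 0.11, and that of the germ cell markers at -0.73.

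Log2 fold changes of the members ran from -0.33 (Aen) to 0.81 (Gdf15) around a median of 0.00, and those of the 30 germ cell markers from -1.44 to 0.29 around a median of -0.73. The 2 ranges overlap, and no test compared the lists. Tex15 (-1.21, edgeR adjusted p = 7.8e-08), which lies on chromosome 8, and Ddx4 (-1.05, edgeR adjusted p = 9.69e-07) had the lowest p-values of the markers. How much of each member's RNA came from germ cells was not measured in these whole testes.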

How the data were processed

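The values are unnormalised counts, deposited per gene and made by the authors with featureCounts 1.6.4 on GENCODE M18 gene models and counted on the gene's strand, per the file headers. Cutadapt, HISAT2 and the build GRCm38.p5 are named per the submitters' processing notes, with no tool versions. Per the labels, total RNA was primed with random and poly(T) primers and depleted of abundant transcripts, while the molecule field names polyA RNA. Of 54232 genes, 54165 were named from GENCODE M21, and 0 columns were left without a sample. Low genes were removed by filterByExpr with a minimum count of 10 and a minimum total of 15, libraries were scaled by TMM, and CPM use the scaled sizes. Groups were compared with the quasi-likelihood test of edgeR 4.0.16 (R 4.3.3, group only, two-sided), adjusted by Benjamini-Hochberg over 20153 genes. DESeq2 1.42.0 and limma-voom (limma 3.58.1) were alternatives. The procedure was also run on simulated counts, drawn without the GC differences seen between these libraries, and that outcome is not reported here. Transcripts of 0 members had a copy in another gene model (searched with minimap2 2.31-r1302 for 95% identity or more over 30% or more of the transcript).

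The members and lists were chosen with earlier results of these data known. Every member is named. From each pathway list up to 4, and from each marker list up to 2, called genes with the lowest p may be named. Replicates differed by more than counting noise. Some items of the lists are not reported here.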

Additional observations from a re-analysis of the deposited data

How the results depend on the processing

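Under 16 alternatives, 472 of 526 values of the members kept their direction and their side of the threshold, 12 lost a call, 14 gained one and 28 changed sign. The sign changes fell on 9 members, whose main log2 fold changes were at most 0.093 in size. Members called higher and lower numbered 2 and 1 in the main analysis, 1 and 4 with library size alone, 1 and 2 without the filter, 2 and 3 in DESeq2, 2 and 2 with the replicate block, and 3 and 2 with the GC correction, which was chosen after seeing the data. Leaving out 1 library at a time gave 0 to 5 members higher and 0 to 2 lower, and 623 to 3375 genes called in all. Log2 fold changes that changed sign were -0.0016 (Btg2), -0.0117 (Phlda3) and -0.0155 (Zmat3) with library size alone, -0.0059 (Zmat3) without the filter, -0.0004 (Phlda3) and 0.0936 (Perp) in limma-voom, -0.0179 (Phlda3) and 0.0390 (Perp) with the replicate block, and -0.0420 (Phlda3), 0.0143 (Perp) and 0.0296 (Eda2r) with the GC correction. With 1 library left out, values ranged from -0.0118 to 0.0377 (Btg2), -0.2099 to 0.1694 (Phlda3), -0.1419 to 0.0163 (Bcl2l1), -0.0074 to 0.0212 (Zmat3), -0.1530 to 0.0225 (Gadd45a), -0.3416 to 0.3569 (Perp), -0.0054 to 0.2040 (Trp53), -0.0430 to 0.1614 (Cdkn1a) and -0.0733 to 0.0857 (Eda2r). The causes were not tested. Same-numbered WT and cKO libraries deviated together only weakly (correlations 0.0313, 0.0126 and 0.0652). Each cKO library correlated best with the WT library of its number, whereas WT replicate 2 correlated best with cKO replicate 1 (0.0225). The labels do not say that the numbers mark shared animals or days, so the numbers were not taken to pair the samples. With the replicate block Aen was the added call (-0.3322, edgeR adjusted p = 0.0305). Depth limits Perp, Bbc3 and Fas, which had 10 to 61 counts per library and the widest intervals.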

Other observations

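Immediate early genes, which respond to stress and to tissue handling, moved in both directions: of 21 measured, 2 rose, 1 fell and 18 did not pass (median log2 fold change -0.07). Without cKO replicate 1, 3 rose and 5 fell. Jund, which lies on chromosome 8, rose from 247 ± 3.57 to 324 ± 48.5 CPM (SD, n = 3 each; 0.39, edgeR adjusted p = 0.0148). Klf4 rose from 34.0 ± 1.45 to 41.5 ± 1.02 CPM (0.29, edgeR adjusted p = 0.0204), and Egr2 fell from 27.5 ± 2.76 to 19.4 ± 1.94 CPM (-0.50, edgeR adjusted p = 0.00941). The calls of Jund, Klf4 and Egr2 were lost in 4, 5 and 3 of 16 alternatives.

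Genes listed as markers of other cells in the dissected tissue also differed. Of 10 endothelial markers 2 rose, Pecam1 (0.38, edgeR adjusted p = 0.00782) and Robo4 (0.47, edgeR adjusted p = 0.0140). Of 10 measured duct epithelium markers 2 fell, Epcam (-0.45, edgeR adjusted p = 0.00245) and Krt7 (-1.47, edgeR adjusted p = 0.0313). In that list 7 genes were fitted below 0 and 3 above, among them Krt8 (0.45, edgeR adjusted p = 0.132). Epcam read 37.4 to 37.9 CPM in WT and 25.8 to 28.8 in cKO, and which cells its RNA came from was not measured. Of 6 mesothelium markers 2 fell, Muc16 (-1.08, edgeR adjusted p = 0.0199) and Msln (-1.24, edgeR adjusted p = 0.0356). The calls of Krt7, Muc16 and Msln were lost in 4, 5 and 3 of 16 alternatives, that of Muc16 among others in DESeq2 (adjusted p = 0.0727) and in the robust edgeR fit (adjusted p = 0.189), and those of Pecam1, Robo4 and Epcam in 1, 3 and 0. Leaving out cKO replicate 3 moved Krt7 to -2.07. When cKO replicate 1 was left out, 3 endothelial markers were higher and 1 lower, 1 duct epithelium marker was higher and 2 lower, and 4 mesothelium markers were lower. Of 10 stromal markers 1 rose and 2 fell (3 and 4 without cKO replicate 1), and their sum was 11437 to 12371 CPM in WT, 11868 CPM in cKO replicate 1 and 8832 and 8903 CPM in the other cKO libraries. Of 8 peritubular myoid markers and of 5 measured red blood cell markers 0 were called by edgeR, DESeq2 or limma-voom, with 2 and 0 at an unadjusted p under 0.05, and without cKO replicate 1 edgeR called 5 of the myoid markers lower.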
